A study of Mus musculus with 6 samples.

Results

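Galectins are small lectins that bind galactose-containing sugar chains on glycoproteins and glycolipids, and the transcripts described here are those of 5 galectins (Lgals1, Lgals3, Lgals4, Lgals8 and Lgals9) and of the galectin-3 binding protein (Lgals3bp). These 6 genes, of 55809 in the count files, were chosen by name, with their levels in these same control and prenatal stress pools already known. Their fold changes and adjusted p-values therefore describe these pools and are not independent tests. All 6 genes passed the low-count filter, which left 20146 genes in the test.

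Galectins are made in the cytosol and leave the cell without passing through the secretory pathway. Outside the cell they cross-link integrins and other glycoproteins, and inside it some of them mark damaged endosomes and lysosomes. Galectin-1 is abundant in sensory neurons and their glia and is known from studies of axon regrowth, while galectin-3, first described as the macrophage antigen Mac-2, is known from macrophages and from Schwann cells that clear myelin after nerve injury.

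The tissue was the dorsal root ganglion, which holds the cell bodies of sensory neurons and the glia around them, from C57BL6J mice aged 8 weeks. The control group (3 pools) came from dams left undisturbed in pregnancy. The prenatal stress group (3 pools) came from dams restrained in tubes under bright light 3 times a day for 30 min, from embryonic day 13 to 18 by the sample protocol and from slightly later days by the series design. Each pool held 3 mice, the labels name no litter, and no transgene or other treatment is given for either group.

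Total gene counts ran from 51.7 M to 87.4 M per pool, and levels are given as CPM, the counts of a gene scaled to 1 M counts of its library. Values of single pools are listed in the order of the pool numbers 1 to 3, controls first. All 8 sensory neuron markers examined (among them Prph, Avil and Isl1) were measured, at a summed 8724 to 9097 CPM per pool. The labels speak of both sexes, but the female-specific RNA Xist was at only 9 to 19 counts per pool, near the floor in libraries of this depth. The counts thus show no sign of female mice in any pool. Control pool 3 stood apart in muscle content: 8 skeletal muscle genes such as Acta1 and Ckm summed to 2324 CPM there, against 15.4 to 50.5 CPM in the other 5 pools. The summed level of 7 neutrophil genes also varied widely within both groups, at 140, 182 and 306 CPM in the controls and 46, 219 and 414 CPM under prenatal stress, and its part in the galectin values was not tested. Fold changes of the galectins without that pool are given after their own values.

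Of the 6 genes, 5 had lower levels in all 3 prenatal stress pools than in any control pool, and Lgals4 was the exception. Groups did not overlap in that direction for 8.76% of all genes tested and in the higher direction for 9.33%. Lgals1 alone passed the edgeR quasi-likelihood test over all genes, where 0.0447% of genes passed as lower and 0.0844% as higher. The same 5 had an unadjusted p under 0.05, which 5.11% of all genes reached in the lower direction and 6.01% in the higher one. The median log2 fold change (prenatal stress minus control) was -0.21 over the 6 genes and 0.01 over all genes tested, and 47.7% of all genes had a negative value. Because the same contrast was known when the genes were chosen, nothing is read from these shares.

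**Figure D1:**
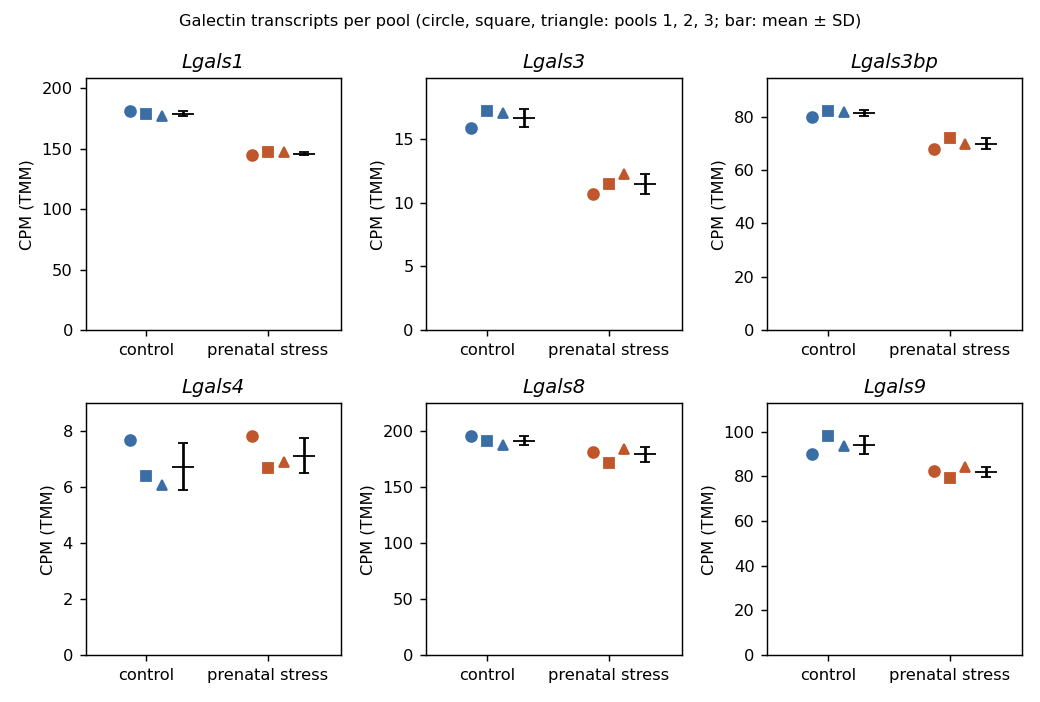
CPM with TMM factors (vertical axis, from 0) of the 6 genes in each of 3 control and 3 prenatal stress pools, with the mean and SD of each group as a bar. The 3 stress points lie below the 3 control points for Lgals1, Lgals3, Lgals3bp, Lgals8 and Lgals9, and the groups overlap for Lgals4.

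Galectin-1, the prototype galectin, has one sugar-binding domain and acts as a homodimer. Lgals1 stood at 181, 179 and 177 CPM in the controls against 145, 147 and 147 CPM under prenatal stress. The pools of each group lay close together, and 30.1 CPM separated the lowest control pool from the highest stress pool. The fall was from 179 ± 2.27 to 146 ± 1.02 CPM (SD, n = 3 per group), 18.4% by the fitted fold change (log2 fold change -0.29 ± 0.03 SE, edgeR adjusted p = 0.0156). In bulk tissue, fewer cells of a type and less RNA per cell cannot be told apart. The call was lost when pools were blocked by number (replicate block, adjusted p = 0.0726), with a correction for GC content and length (log2 fold change -0.23, adjusted p = 0.124) and when any 1 pool was left out: 0.0967, 0.125 and 0.0804 without control pools 1, 2 and 3, and 0.174, 0.0719 and 0.064 without stress pools 1, 2 and 3. The processed pseudogenes Lgals1-ps1 and Lgals1-ps2 held 2 and 0 counts over all pools.

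Galectin-3, the chimera galectin, joins its sugar-binding domain to a proline- and glycine-rich tail through which it forms oligomers. Lgals3 stood at 15.9, 17.2 and 17.1 CPM in the controls against 10.7, 11.5 and 12.3 CPM under prenatal stress. It had the largest fold difference of the 6 genes. In CPM, the highest stress pool was 3.66 below the lowest control pool. The means were 16.7 ± 0.701 and 11.5 ± 0.8 CPM (SD, n = 3 per group), 31.5% lower by the fitted fold change (log2 fold change -0.55 ± 0.07 SE). Its edgeR adjusted p of 0.0532 lay just outside the threshold. It was inside with DESeq2 (5.56e-08), limma-voom (0.0439) and edgeR without a low-count filter (0.00723), and over 13 alternatives the adjusted p reached 0.311 while the log2 fold change stayed between -0.60 and -0.50. The counts behind it were 634 to 1493 per pool, a counting error of 2.59% to 3.97%, against a spread between pools of 4.18% in controls and 6.97% in stress pools.

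Macrophage genes as a list did not separate the groups, and all of them were detected. Of 14 macrophage markers, 7 had positive and 7 negative values, with a median log2 fold change of -0.01, and 0 passed over all genes. Their summed level ran from 255 to 283 CPM in controls and from 236 to 319 CPM in stress pools. Stress pools 2 and 3 had the highest macrophage means of all pools (0.15 and 0.17 on the centred log2 scale), and their Lgals3 was at -0.27 and -0.17. Stress pool 1 had the lowest macrophage mean (-0.30) and also the lowest Lgals3 (-0.37). The part of macrophage content in the Lgals3 values was not tested.

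The galectin-3 binding protein is a secreted glycoprotein that carries sugar chains recognised by galectins, and its gene is known to respond to interferon. Lgals3bp stood at 80.1, 82.1 and 81.9 CPM in the controls against 67.8, 72.1 and 69.9 CPM under prenatal stress. All 3 stress pools were at least 8.03 CPM below the lowest control pool. The means were 81.4 ± 1.1 and 69.9 ± 2.13 CPM (SD, n = 3 per group), 14% lower by a fitted log2 fold change of -0.22 ± 0.03 SE (edgeR adjusted p = 0.118).

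Galectin-9 and galectin-8 are tandem-repeat galectins, with a pair of different sugar-binding domains in each chain. Galectin-9 is a ligand of the T cell receptor TIM-3 and its gene also responds to interferon. Lgals9 stood at 90.2, 98 and 93.8 CPM in the controls against 82.5, 79.4 and 84.1 CPM under prenatal stress, so that the groups were 6.06 CPM apart at their nearest. The means were 94 ± 3.92 and 82 ± 2.39 CPM (SD, n = 3 per group), 12.8% lower by a fitted log2 fold change of -0.20 ± 0.04 SE (edgeR adjusted p = 0.234).

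Galectin-8 binds sugars exposed on damaged endosomes. Lgals8 stood at 195, 191 and 187 CPM in the controls against 181, 171 and 184 CPM under prenatal stress. The groups were only 3.47 CPM apart, less than the SD of either group (4.13 CPM in controls and 6.61 CPM in stress pools). Its log2 fold change was -0.10 ± 0.04 SE (edgeR adjusted p = 0.412). Exons of Lgals8 overlap those of Heatr1 on the other strand, with 156 shared bases in the longest match between their transcripts, and the strand setting of the counter is not given in the sources used here. Heatr1 stood at 20.5 ± 1.37 and 21.1 ± 1.81 CPM.

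Galectin-4, the third tandem-repeat member here, is best known from the gut lining and has also been studied on axons. Lgals4 stood at 7.68, 6.41 and 6.09 CPM in the controls against 7.82, 6.68 and 6.89 CPM under prenatal stress. The groups overlapped, and pool 1 was the highest of both groups. Its log2 fold change was 0.09 ± 0.11 SE (edgeR adjusted p = 0.833). Of 8 epithelial markers, 4 passed the low-count filter, and the gut gene Vil1 stood at 0.152 ± 0.0326 and 0.131 ± 0.0768 CPM, while the cadherin gene Cdh1 stood at 197 ± 8.74 and 214 ± 7.17 CPM. The part of epithelial cells in the Lgals4 level was not tested.

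Without control pool 3, which held the muscle transcripts, the log2 fold changes were -0.30 for Lgals1, -0.53 for Lgals3, -0.21 for Lgals3bp, -0.20 for Lgals9, -0.11 for Lgals8 and 0.02 for Lgals4. The same 5 genes had non-overlapping groups, as 13.6% of all genes then did in the lower direction. The first 5 values were close to those with all pools, while that of Lgals4 was 0.09 with all pools.

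**Figure D2:**
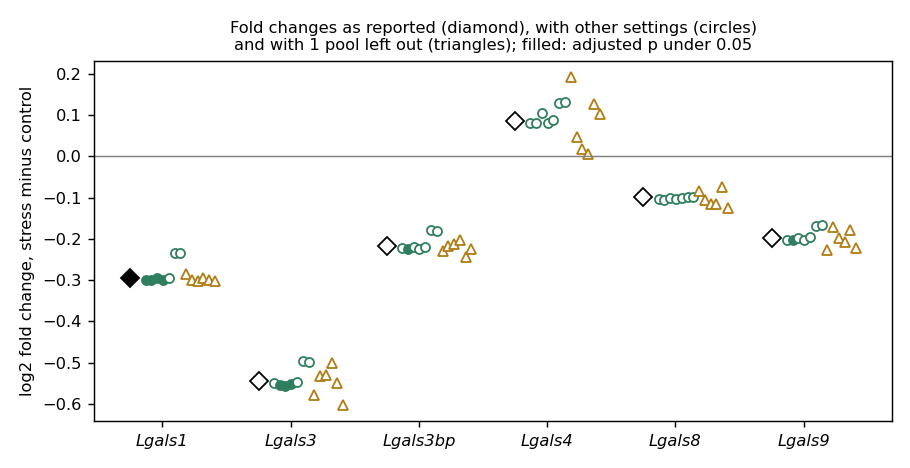
Log2 fold change (prenatal stress minus control) of the 6 genes as reported (diamonds), under 7 other settings (circles) and with each of 6 pools left out (triangles), with filled symbols for an adjusted p under 0.05. Lgals3 keeps the lowest values throughout, and all Lgals1 triangles are open, at -0.30 to -0.28.

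RefSeq promoter sequences (build GRCm38.p6) were found for 5 of the 6 genes, all but Lgals1. Those of Lgals3bp and Lgals9 are shown because both genes are known to respond to interferon. The choice was made with the values of the interferon-induced genes known, and a part of interferon in the galectin levels was not tested. Each window holds the 250 bases before the start site, 5′ to 3′ on the strand of the gene, for Lgals3bp chr11:118401960-118402209 (minus strand) and for Lgals9 chr11:78984925-78985174 (minus strand). Capitals mark matches, on either strand, to a pair of GAAA words. They are 2 bases apart, the interferon-stimulated response element spacing searched first, in Lgals9 and 3 bases apart in Lgals3bp.
Lgals3bp: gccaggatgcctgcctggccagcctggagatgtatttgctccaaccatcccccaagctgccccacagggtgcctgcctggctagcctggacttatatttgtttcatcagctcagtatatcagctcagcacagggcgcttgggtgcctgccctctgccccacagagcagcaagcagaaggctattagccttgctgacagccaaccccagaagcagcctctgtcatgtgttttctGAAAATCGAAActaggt
Lgals9: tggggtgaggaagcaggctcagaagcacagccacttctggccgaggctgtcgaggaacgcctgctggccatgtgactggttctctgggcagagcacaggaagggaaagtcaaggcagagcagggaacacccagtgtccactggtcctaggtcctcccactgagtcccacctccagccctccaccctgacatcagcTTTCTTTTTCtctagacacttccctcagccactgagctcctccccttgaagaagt

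The Lgals3bp match, at bases -17 to -7 from the start, fits GAAANNNGAAA, which 2.75% of 32851 promoter windows of 300 bases hold (250 before the start and 50 after). The Lgals9 match, at bases -55 to -46 and on the other strand, fits GAAANNGAAA, which 3.44% of the windows hold. A second match of Lgals9 to that motif lies after the start, at bases 16 to 25. The spacing of 3 was added to the search after the Lgals3bp sequence was seen, so nothing is read from that match or its share of windows. With the spacing of 2, Lgals3bp had 0 matches. Neither motif was found in the windows of Lgals3, Lgals4 and Lgals8, and none of the 5 windows held the AP-1 motif TGANTCA (7.81% of windows) or the TATA box motif TATAAA (13.6%). The GC box motif GGGCGG (35.7% of windows) occurred on both sides of the Lgals3 start, at bases -7 to -2 and 5 to 10, and after the Lgals4 start. Motifs were searched on both strands, and a match is a run of letters, not a measured site.

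Beside Lgals3bp and Lgals9, 14 of 15 interferon-induced genes had negative values. The median log2 fold change of that list was -0.32, 9 members had an unadjusted p under 0.05 in that direction and 0 passed over all genes by edgeR. Of all genes tested, 47.7% had a negative value and 5.11% reached that p in the lower direction. The 3 of smallest p, named after their values were seen, were Oasl2 (60.3 ± 3.87 and 45.3 ± 5.7 CPM), Ifi27l2a (10.9 ± 2.19 and 6.68 ± 0.959 CPM) and the antiviral gene Ifit1 (31.1 ± 6.94 and 18.1 ± 5.02 CPM). The mean of the list on the centred log2 scale was 0.03, 0.15 and 0.40 in the controls against -0.36, -0.33 and 0.11 under prenatal stress. It was lower in each stress pool than in the control pool of the same number. Lgals3bp and Lgals9 had no overlap between groups and were lower under any numbering of the pools, so nothing is read from that likeness. Across numbers the groups of the list overlapped, with stress pool 3 above control pool 1. On the same scale Lgals3bp was at -0.11 and Lgals9 at -0.06 in stress pool 3, both below every control pool. The part of the interferon genes in these results was not tested.

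Satellite glia enclose the neuron bodies of the ganglion. Over all genes tested, 47.7% had a negative value. An unadjusted edgeR p under 0.05 was reached by 5.11% as lower and 6.01% as higher, and groups did not overlap for 8.76% and 9.33%. All 8 satellite glia markers had negative values (median log2 fold change -0.18), 4 with an unadjusted p under 0.05 and 4 with no overlap. By edgeR, 0 of them passed over all genes. Their summed level was 2693 to 2888 CPM in controls and 2396 to 2526 CPM in stress pools. Markers of peptidergic nociceptors, the pain neurons that release neuropeptides, were negative for 7 of 8 (median -0.18), 5 with an unadjusted p under 0.05 and 4 with no overlap between groups, with sums of 2234 to 2433 and 2009 to 2067 CPM, and 0 passed. Markers of nonpeptidergic nociceptors were positive for 9 of 10 (median 0.15), 7 with an unadjusted p under 0.05 and 6 with no overlap, with sums of 1988 to 2084 and 2102 to 2351 CPM, and 0 passed. The summed levels of myelinating Schwann cell genes (7351 to 8521 and 6466 to 8445 CPM), fibroblast genes (1173 to 1682 and 1269 to 1470 CPM) and endothelial genes (189 to 206 and 193 to 205 CPM) overlapped between groups, and their medians were -0.06, 0.01 and -0.03. Markers of myelinated sensory neurons were positive for 6 of 9 (median 0.07), with 0 passing. Of these, 4 had an unadjusted p under 0.05 as higher, and groups did not overlap for 4 as higher and 1 as lower. The 8 sensory neuron markers summed to 8770 to 9097 CPM in controls and 8724 to 8828 CPM in stress pools (median 0.02). Of these, 5 had positive and 3 negative values, and of 9 Schwann cell genes 2 and 7. In each of these lists, 1 gene had an unadjusted p under 0.05 and no overlap, as lower. The fibroblast list had 1 such gene, as higher, and the endothelial list had 0. In all 4 lists 0 passed. The part of glial or neuronal content in the galectin values was not tested.

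**Figure D3:**
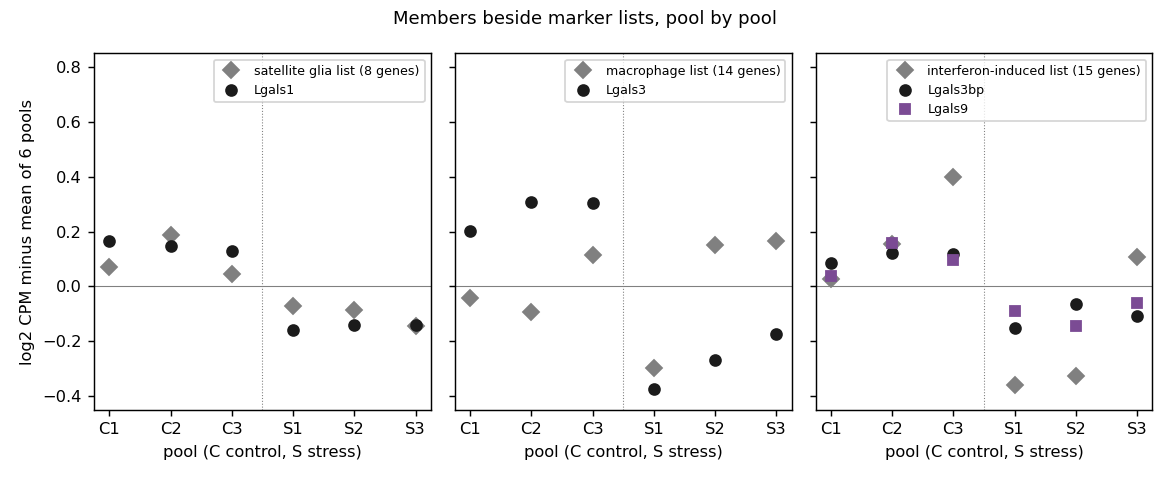
Log2 CPM minus the mean of the 6 pools (vertical axis) for Lgals1 with the satellite glia list, Lgals3 with the macrophage list, and Lgals3bp and Lgals9 with the interferon-induced list, in control pools C1 to C3 and prenatal stress pools S1 to S3. Diamonds are list means. Satellite glia and Lgals1 are both below 0 in all 3 stress pools. The peptidergic nociceptor list, not drawn, was also below 0 there (-0.09, -0.05 and -0.06). Lgals1 was chosen with its group difference known, so nothing is read from its likeness to a list that is lower under prenatal stress. The macrophage list is highest in S2 and S3. The groups of the interferon list overlap, with S3 above C1, while those of Lgals3bp and Lgals9 do not.

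Per kilobase of exon, Lgals1 was the most abundant galectin transcript by a wide margin. That margin depends on the length used, which was that of all annotated exons of a gene (for Lgals8, 3688 bases against 2843 in its longest transcript). By CPM without length, Lgals8 was above Lgals1 in both groups (191 and 179 against 179 and 146). Control levels in CPM per kb were 198 ± 2.51 for Lgals1, 51.9 ± 1.12 for Lgals8, 44 ± 1.84 for Lgals9, 28.6 ± 0.385 for Lgals3bp, 9.01 ± 0.377 for Lgals3 and 2.91 ± 0.363 for Lgals4 (SD, n = 3 pools). Stress levels followed the same order, at 162 ± 1.13, 48.4 ± 1.79, 38.4 ± 1.12, 24.6 ± 0.749, 6.18 ± 0.431 and 3.08 ± 0.264 CPM per kb. No pair of neighbours in that order overlapped in either group. The sum over the 5 galectins was 308, 308 and 302 CPM per kb in the controls against 257, 255 and 261 CPM per kb under prenatal stress. Lgals1 made up 64.8% ± 0.43 of that sum in controls and 62.7% ± 0.82 in stress pools.

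Other members of the family were scarce, apart from Lgalsl, a galectin-related protein that lacks sugar binding. Lgalsl stood at 41.1, 43.4 and 42.3 CPM in the controls against 41, 40.8 and 43.1 CPM under prenatal stress, with overlapping groups (log2 fold change -0.02 ± 0.04 SE, edgeR adjusted p = 0.87). Lgals7, the galectin of stratified epithelia, had 27 to 42 counts per pool, and Lgals12, the galectin of fat cells, had 8 to 25. Their log2 fold changes were 0.19 ± 0.22 SE and -0.43 ± 0.40 SE, with edgeR adjusted p of 0.803 and 0.736. Lgals2 (1 to 11 counts per pool) and the lens gene Grifin (2 to 6 counts) did not pass the low-count filter and were not tested. Lgals6 was not among the genes counted and is absent from GENCODE M21.

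Of 24 known binding partners of galectins, 1 passed as lower and 0 as higher, against 0.0447% and 0.0844% of all genes tested. Itga7 encodes a laminin-binding integrin subunit that galectin-1 binds in its pairing with the integrin beta-1 chain. It stood at 255, 241 and 264 CPM in the controls against 204, 197 and 195 CPM under prenatal stress, and the groups lay well apart. It fell from 253 ± 11.5 to 199 ± 4.6 CPM (log2 fold change -0.35 ± 0.04 SE, edgeR adjusted p = 0.0404), and this call was known when the list was written. The call was lost with the replicate block (adjusted p = 0.0726), with the GC and length correction (0.0748) and without any 1 pool (0.182, 0.0768 and 0.135 without control pools 1, 2 and 3, and 0.186, 0.171 and 0.12 without stress pools 1, 2 and 3). With the correction and the replicate block together it passed (adjusted p = 0.0222). Itga7 is also a skeletal muscle gene, and without control pool 3 its log2 fold change was -0.32. The beta-1 chain gene Itgb1, outside the rule for naming genes and named as the partner of Itga7, stood at 368 ± 12.2 and 351 ± 11.8 CPM (-0.07 ± 0.04 SE). After Itga7 the smallest p-values belonged to Bsg, a glycoprotein bound by galectin-3, the axon guidance receptor Nrp1 and the adhesion molecule Ncam1. Their log2 fold changes were 0.09 ± 0.03, 0.20 ± 0.08 and -0.09 ± 0.04 SE, with edgeR adjusted p of 0.327, 0.411 and 0.455. Groups did not overlap for Bsg, as higher, and for Ncam1, as lower. In all, 15 of the 24 had negative values, and the list median was -0.05. Groups did not overlap for 4 of the 24 as lower and 1 as higher, against 8.76% and 9.33% of all genes tested.

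None of 19 enzymes and transporters that build or cap galectin-binding sugar chains passed the edgeR test. Over all genes tested, 5.11% had an unadjusted p under 0.05 as lower and 6.01% as higher, and 1 of the 19 did. That was Slc35a2, which carries UDP-galactose into the Golgi, at 30.6 ± 0.715 and 28 ± 0.453 CPM (log2 fold change -0.13 ± 0.04 SE, adjusted p = 0.354). The sialyltransferases St3gal6 (-0.08 ± 0.05 SE) and St3gal3 (-0.12 ± 0.08 SE) and the N-glycan branching enzyme Mgat4b (0.07 ± 0.05 SE) followed by p. The list median was -0.01, with 7 positive and 12 negative values.

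**Figure D4:**
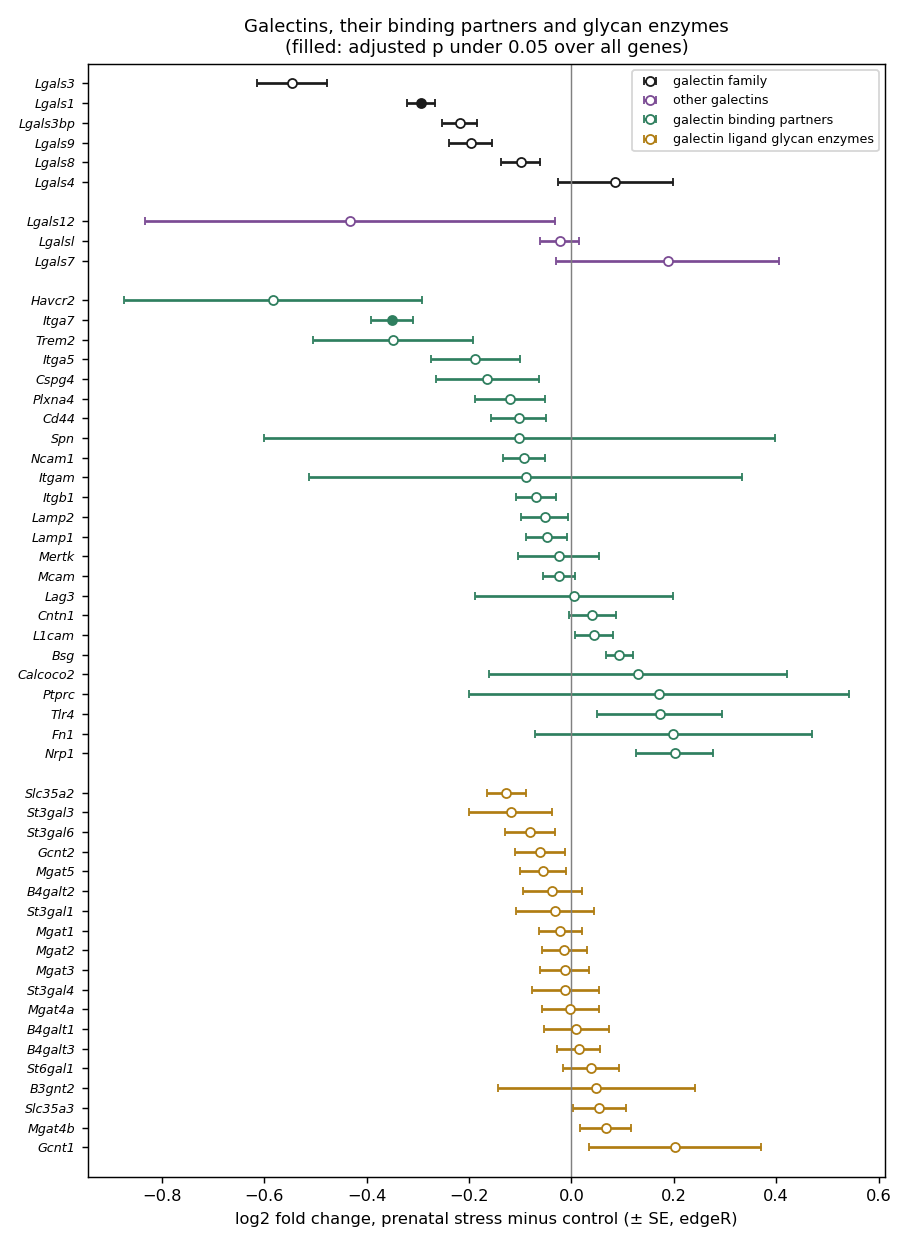
Log2 fold change (prenatal stress minus control, with SE, horizontal axis) of the 6 genes, the 3 other galectins tested, 24 binding partners and 19 glycan enzymes and transporters. Filled symbols, at Lgals1 and Itga7, mark an adjusted p under 0.05 over all genes, and the glycan enzymes lie between -0.13 (Slc35a2) and 0.20 (Gcnt1).

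Among 11637 other genes with a mean of at least 5 CPM, those nearest to each galectin over the 6 pools were found by the root mean square difference of centred log2 CPM. Nearest to Lgals1 were the muscle cadherin gene Cdh15 (0.027), the membrane metalloprotease gene Mmp16 (0.027) and Tcf19 (0.035). Cdh15 had means of 9.18 and 7.46 CPM and was not high in control pool 3 (0.11 on the centred scale, against 0.22 in control pool 1). Nearest to Lgals3 were Galnt6 (0.064), an enzyme that starts O-linked sugar chains, the tubulin gene Tubb6 (0.066) and Smim3 (0.085). Tubb6 had means of 10.8 and 7.38 CPM.

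Nearest to Lgals3bp were Tmem43 (0.022), the ribonuclease inhibitor gene Rnh1 (0.022) and the ATP synthase subunit gene Atp5k (0.023), and nearest to Lgals9 were Ccdc40 (0.019), Nudt22 (0.022) and the poliovirus receptor homologue Pvr (0.024). None of these 6 was on the list of 15 interferon-induced genes, and no conclusion is drawn from this. The distance depends on the size of the change, and the median log2 fold change of that list was -0.32. Lgals8 was matched most closely of all, by Idh1 (0.0088), Llph (0.0095) and the proteasome subunit gene Psmc6 (0.0099), in a profile that differed little between pools. Lgals4 was nearest to the transcription factor genes Klf5 (0.029) and Foxp1 (0.033) and to Twsg1 (0.045), which were also highest in pool 1 of both groups. These distances describe 6 pools that share the group difference and carry no test.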

How the data were processed

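Poly-A selected, stranded, paired-end libraries of ganglion RNA were sequenced, 1 per pool of 3 mice. The deposited values are raw counts per gene symbol. FastQC, STAR 2.4, HTSeq 0.9.1 and the builds GRCm39 and mm10 are named in the submitters' processing notes. The build used and the counter's strand setting are not stated in those sources. Reads that the counter gave to no gene (15.3% to 16.2% of each file) were left out.

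The test was that of edgeR 4.0.16 under R 4.3.3, with TMM factors, filterByExpr (minimum count 10), the quasi-likelihood test of prenatal stress against control on all 6 pools, and Benjamini-Hochberg adjustment over 20146 genes with a threshold of 0.05. An SE is the log2 fold change over the square root of F. CPM carry TMM factors, and centred values are log2 CPM (prior count 2) minus the mean of the 6 pools. Nothing says that pools came from separate litters, so p-values measure the spread between these pools.

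All pairs of libraries differed by more than sampling noise (chi-square per degree of freedom 11 to 36.4 over 15 pairs). The labels number pools 1 to 3 in both groups without saying what a number marks. Deviations of same-numbered pools from their group means correlated at 0.337, 0.218 and 0.13 over genes, and those of differently numbered pools at -0.3 to 0.122 (control 3 with stress 2 highest). Each same-numbered value is over 0.1, but the third pair hardly exceeds the highest unmatched one. These values therefore do not settle whether the numbers pair the pools. The main test carried no pairing, and the replicate block was run as an alternative, in which Lgals1 did not pass (edgeR adjusted p = 0.0726).

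Exon lengths, GC content and overlaps came from GENCODE M21, used by symbol, and no transcript of another gene matched one of the 6 genes at 90% identity over 100 bases apart from Heatr1. Alternatives were RLE factors, DESeq2 1.42.0, limma-voom (limma 3.58.1), no low-count filter, the replicate block, a GC and length correction without and with that block, and each pool left out; the check of group overlap without each pool, and all alternatives for named genes outside the 6, were added after the data were seen. The 6 genes and all lists were chosen with earlier results of these data known. Named genes are the 6, the other galectins, for partners and enzymes those that passed and the 4 of smallest p, and the 3 nearest genes to each of the 6 with at least 5 CPM and no clone, predicted or pseudogene name. Genes named outside that rule, after their values were seen, are Itgb1, Heatr1, Gcnt1, the epithelial genes Vil1 and Cdh1 and the 3 interferon-induced genes of smallest p.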

Additional observations from a re-analysis of the deposited data

How the results depend on the processing

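The number of genes that passed, 26 by edgeR, was 301 with DESeq2 and 49 without the low-count filter, and 2 to 14 with 1 pool left out. Lgals1 kept its direction in 13 of 13 alternatives and passed in 4 of them. It did not pass with the replicate block (log2 fold change -0.29, adjusted p = 0.0726), with the GC and length correction (-0.23, adjusted p = 0.124; with the replicate block too, -0.23 and 0.151) or with 1 pool left out (-0.30 to -0.28). The block changed no other call of the 6 genes. Lgals3 passed with DESeq2 (-0.55, adjusted p = 5.56e-08), limma-voom (-0.56, 0.0439) and no low-count filter (-0.55, 0.00723). Lgals3bp (-0.22, 0.000173) and Lgals9 (-0.20, 0.00676) passed with DESeq2. Over 13 alternatives each, the adjusted p ran from 4.56e-14 to 0.174 for Lgals1, 5.56e-08 to 0.311 for Lgals3, 0.000173 to 0.53 for Lgals3bp, 0.00676 to 0.634 for Lgals9, 0.268 to 0.642 for Lgals8 and 0.552 to 0.991 for Lgals4. The causes of these changes were not tested. Itga7 kept its direction in each and passed in 5 of 13. None of the 6 genes, the 3 other galectins tested or the 8 named partners and enzymes reversed, and Lgals4 came nearest to 0 (0.01 to 0.19 with 1 pool left out). CPM on plain library totals moved each group mean by less than its SD. Depth limits Lgals2, Grifin, Lgals12 and Lgals7, whose lowest pools held 1, 2, 8 and 27 counts.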
